A study of Rattus norvegicus with 6 samples.

Results

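Hspa5, Hsp90b1 and Ddit3 are 3 genes widely read as markers of stress in the endoplasmic reticulum. They were taken by identifier, ENSRNOG00000018294 for Hspa5, ENSRNOG00000026963 for Hsp90b1 and ENSRNOG00000006789 for Ddit3, and are 3 of the 32402 genes counted. All 3 were among the 16344 genes that passed a filter on low counts and were tested. The pairing of symbol and identifier came with the choice of genes, since the count table lists identifiers alone. RNA came from the paraventricular nucleus, a hypothalamic cell group, of male rats of the Holtzman stock. One group had received the loop diuretic furosemide at 10 mg/kg, which makes the kidney excrete sodium, and had then been kept for 24 h on sodium-poor food and distilled water. The other group was the control, whose injection and diet are not described in the labels, and the age of the rats is not given in either group. Each group had 9 rats, divided into 3 libraries that each pooled the tissue of 3 rats.

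The endoplasmic reticulum folds the proteins that a cell secretes. When unfolded protein builds up there, the sensors IRE1, PERK and ATF6 start the unfolded protein response, which raises chaperones and slows translation. Hspa5 encodes BiP (GRP78), the Hsp70 chaperone of the endoplasmic reticulum, which also binds the sensors and holds them inactive. Hsp90b1 encodes GRP94, the Hsp90 chaperone of the same compartment. Ddit3 encodes CHOP, a transcription factor of the C/EBP family induced mainly through PERK and ATF4 and linked to cell death when stress lasts. Magnocellular neurons of the paraventricular nucleus make large amounts of vasopressin and oxytocin precursor, and their secretory load is known to change with water and salt balance. The comparison therefore asks how the transcripts of these markers stood a day after acute sodium loss.

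The DNA just upstream of the genes is shown because elements through which the response acts can lie there. The endoplasmic reticulum stress response element (ERSE), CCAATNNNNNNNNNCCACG, joins a CCAAT box, its first 5 letters, bound by NF-Y, to a last part bound by ATF6. The sequences are the 250 bases before each gene's start in RefSeq, build GRCr8, written 5′ to 3′ on the strand of the gene. All 3 genes were matched by symbol. Capitals mark the first and last 5 letters of each match to the ERSE on either strand, allowing 1 mismatch in the last part. The positions are chr3:38452766-38453015 on the plus strand for Hspa5, chr7:23012294-23012543 on the minus strand for Hsp90b1 and chr7:65001445-65001694 on the plus strand for Ddit3. They belong to GRCr8, and no source used here names the build behind the counts.
Hspa5: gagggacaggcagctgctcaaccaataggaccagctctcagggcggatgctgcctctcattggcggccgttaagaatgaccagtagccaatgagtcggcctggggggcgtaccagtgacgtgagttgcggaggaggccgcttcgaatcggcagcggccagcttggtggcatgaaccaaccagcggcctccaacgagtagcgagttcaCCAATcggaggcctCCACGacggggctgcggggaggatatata
Hsp90b1: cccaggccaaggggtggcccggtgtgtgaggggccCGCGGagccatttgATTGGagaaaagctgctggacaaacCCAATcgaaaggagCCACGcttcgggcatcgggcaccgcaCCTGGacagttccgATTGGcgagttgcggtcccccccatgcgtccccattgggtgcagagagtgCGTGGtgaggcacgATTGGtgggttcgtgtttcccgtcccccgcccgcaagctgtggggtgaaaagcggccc
Ddit3: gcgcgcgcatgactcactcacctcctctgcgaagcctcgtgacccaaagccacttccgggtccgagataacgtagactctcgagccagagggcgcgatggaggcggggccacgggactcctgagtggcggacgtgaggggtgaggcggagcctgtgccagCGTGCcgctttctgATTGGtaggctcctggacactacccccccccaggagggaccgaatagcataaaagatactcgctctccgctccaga

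Hspa5 held 1 exact ERSE, on the gene's own strand, from 43 to 25 bases before the start. Hsp90b1 held 2 exact matches, one on the gene's strand from 176 to 158 bases before the start and the other on the opposite strand from 72 to 54. It held 2 further matches with 1 mismatch, at 215 to 197 and at 136 to 118 bases before the start, both on the opposite strand. Ddit3 held no exact match and 1 match with a mismatch, on the opposite strand, from 90 to 72 bases before the start. Among the 33469 RefSeq promoters of the same length, 22 (0.0657%) held an exact ERSE and 304 (0.908%) held one with at most 1 mismatch. Hsp90b1 was the 1 promoter of the 33469 with 2 exact matches. The motif was chosen because the response is known to act through it, so these shares are a description and no test. Every ERSE match contains a CCAAT box, and CCAAT on either strand occurred 4 times in Hspa5, 5 times in Hsp90b1 and 1 time in Ddit3, against at least 1 time in 34.0% of promoters. None of the 3 windows (0) held ATTGGNCCACG (the ERSE-II, in 0.0418% of promoters), TGACGTGG (an XBP1 core, 0.520%), TTGCATCA (an ATF4 and C/EBP element, 0.693%) or the core promoter letters TATATAA (3.42%), on either strand. Bases farther upstream were not searched, so an element absent from a window can still lie outside it. The Hspa5 window ends in tatata, so a match to TATATAA running past its end could not be found. The same window holds tgacgtga, which differs from the XBP1 core only in its last letter. That form was not searched for. A match describes letters in the window and says nothing of binding in these rats.

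**Figure D1:**
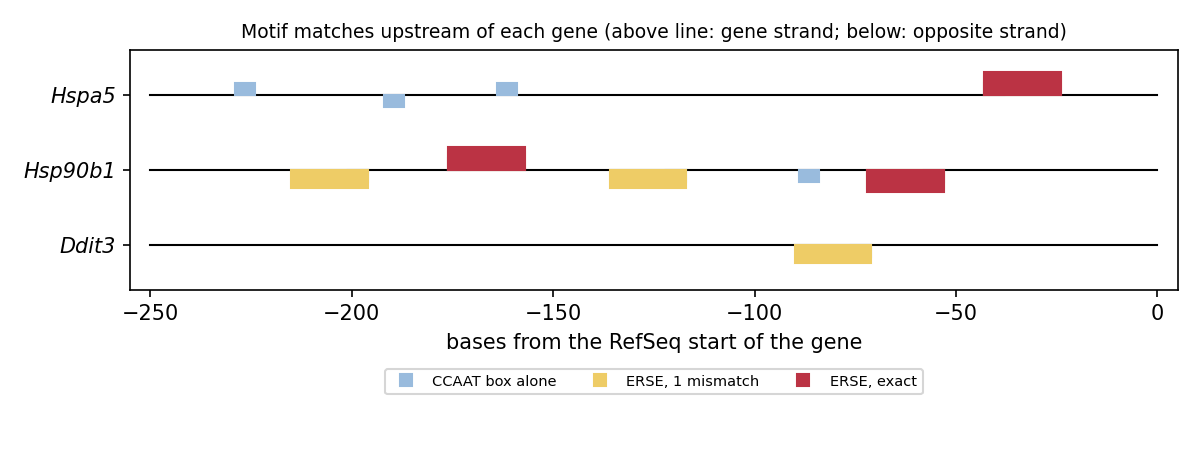
Matches to the ERSE and to the CCAAT box in the 250 bases upstream of each gene, by distance in bases from the RefSeq start. Blocks above a line lie on the gene's strand and blocks below it on the opposite strand; Hsp90b1 carries 2 exact and 2 near matches, Hspa5 1 exact match and Ddit3 1 near match.

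None of the 3 genes (0) passed the test of furosemide against control at an adjusted threshold of 0.05, and every estimated difference was under 5% of the control level. Hspa5 stood 4.93% lower after furosemide, Hsp90b1 3.76% lower and Ddit3 0.290% lower. The test was the edgeR quasi-likelihood F test fitted across all 16344 genes, of which 0% passed the adjusted threshold. At an unadjusted p under 0.05 there was 1 of the 3 genes, Hspa5, against 8.09% of all tested genes. Levels are given as CPM, the usual unit of counts scaled to a common library total. The 6 libraries held 20911950 to 22495415 counts, with scaling factors between 0.994 and 1.007, so each level rests on nearly equal depth. In bulk tissue, fewer cells of a type and less RNA per cell cannot be told apart. The pooled libraries are the replicates, so the spread behind the p-values is that between pools of 3 rats. The edgeR test draws each gene's spread toward that of the other tested genes, so a p-value rests in part on those.

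Hspa5, the BiP chaperone, was at 718, 739 and 748 CPM in the 3 control libraries and at 701, 699.6 and 696 CPM in the 3 furosemide libraries. All 3 furosemide values lay below all 3 control values, and the furosemide values were close together. Control libraries averaged 735 ± 15.5 CPM and furosemide libraries 699 ± 2.75 CPM (SD over 3 libraries each). The difference on the log2 scale was -0.073 (standard error 0.031), with a 95% interval of -0.14 to -0.0064. The edgeR unadjusted p was 0.0339 and the adjusted p 0.566, so the difference did not pass the test. In percent of the control level the interval ran from -9.21% to -0.443%. The interval held 0 in 5 of the 6 fits that left out 1 library, all but that without control 1. Upper ends in these 6 fits ran from -1.26% to 1.26%. With a replicate block the interval also held 0 and ended at 0.343%. Fits with 1 library left out had larger standard errors, 0.033 to 0.038. Whether single libraries set the result was not tested. The log2 estimate was -0.075 without furosemide 1 and -0.074 without furosemide 2, no smaller in size than with all 6 libraries. It was larger in size without control 1, at -0.089. It was smaller without control 2 (-0.070), furosemide 3 (-0.070) and control 3 (-0.060). The interval is for 1 gene taken alone, with no adjustment for the number of genes tested.

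Hsp90b1, the GRP94 chaperone, was at 685, 696 and 699 CPM in the control pools and at 657, 683 and 662 CPM in the furosemide pools. The groups again did not overlap, but the highest furosemide library, furosemide 2, was within 2.08 CPM of the lowest control, control 1. Control pools averaged 693 ± 7.24 CPM and furosemide pools 667 ± 13.9 CPM (SD over 3 pools each). The difference on the log2 scale was -0.055 (standard error 0.031), with an edgeR unadjusted p of 0.0982 and an adjusted p of 0.699. Its 95% interval ran from -8.13% to 0.813% of the control level, so no change lies within it. RefSeq names 2 pseudogenes of Hsp90b1 in the rat. The search went by gene name, so copies of any of the genes under other names would be missed. The sources used here do not say how reads matching several places were treated. Whether such reads changed the level of Hsp90b1 was not tested.

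Groups that did not overlap in the lower direction were found for 2 of the 3 genes and for 6.82% of the 16344 tested genes. With 3 genes, which were chosen with results of these data known, that count is a description.

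Ddit3, which encodes CHOP, was at 28.8, 27.8 and 26.8 CPM in the control pools and at 26.8, 28.7 and 27.7 CPM in the furosemide pools. The groups overlapped throughout, and the lowest and highest of the 6 values differed by 1.07-fold. Control pools averaged 27.8 ± 0.985 CPM and furosemide pools 27.7 ± 0.946 CPM (SD over 3 pools each). The difference on the log2 scale was -0.0042 (standard error 0.058), with an edgeR adjusted p of 0.995. Its 95% interval ran from -8.57% to 8.74% of the control level. The gene was read at 557 to 628 counts per library, so it was detected in every pool of both groups.

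**Figure D2:**
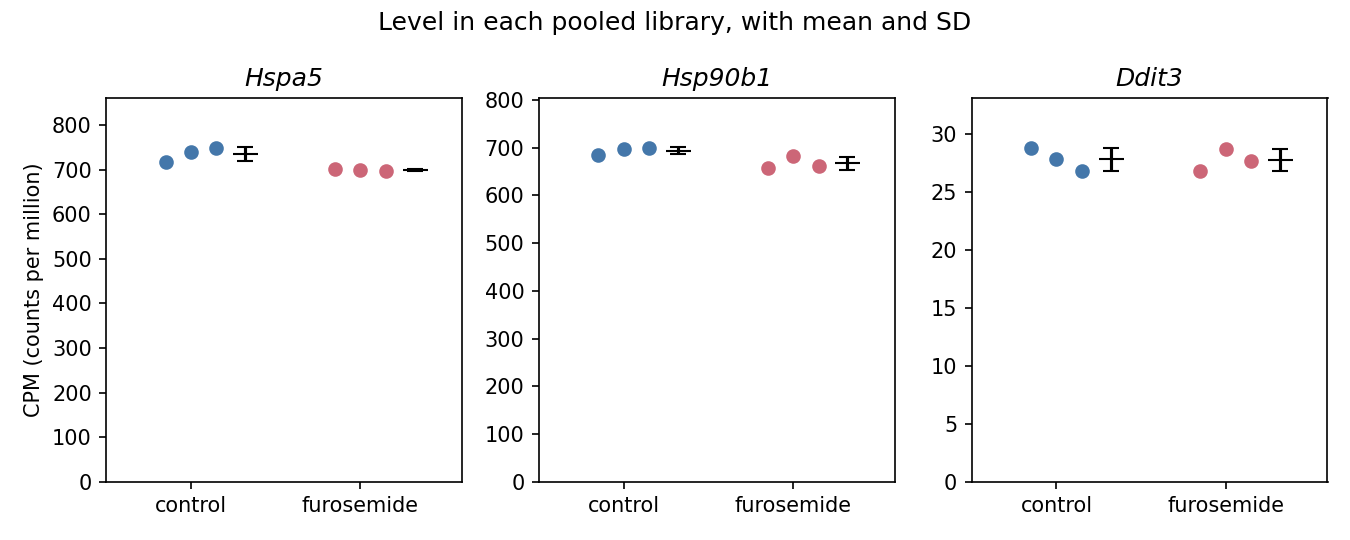
CPM of each gene in each library, on axes that start at 0, with control libraries in blue and furosemide libraries in red, in the order of replicate 1 to 3. The black mark beside each group is its mean and SD over 3 libraries; Hspa5 lies between 696 and 748 CPM, Hsp90b1 between 657 and 699 CPM and Ddit3 between 26.8 and 28.8 CPM.

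Set against all tested genes, the differences of the chaperones were of ordinary size and that of Ddit3 was small. The median absolute log2 fold change over the 16344 genes was 0.060. A smaller absolute change than that of Hspa5 was estimated for 57.0% of genes, than that of Hsp90b1 for 46.7%, and than that of Ddit3 for 4.10%. The precision was better than for most genes, above all for the chaperones. Only 0.453% of genes had a narrower 95% interval than Hspa5 and 0.636% a narrower one than Hsp90b1, whereas 36.7% had a narrower one than Ddit3. Intervals tend to narrow as counts rise, so this ranking goes in part with level. Genes of like level were not compared as a set. The interval lay wholly within a 1.1-fold change in either direction for Hsp90b1 and Ddit3, as it did for 20.6% of all tested genes. For Hspa5 the lower end of the interval, 0.908-fold, passed just beyond that bound. The interval of Ddit3 also passed it in every fit that left out 1 library. It reached -11.4% without furosemide 2 and 12.1% without control 1. With a replicate block the lower end for Ddit3 was -9.23%, again beyond the bound. Hsp90b1 passed the bound only without furosemide 2, where its lower end was -10%.

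**Figure D3:**
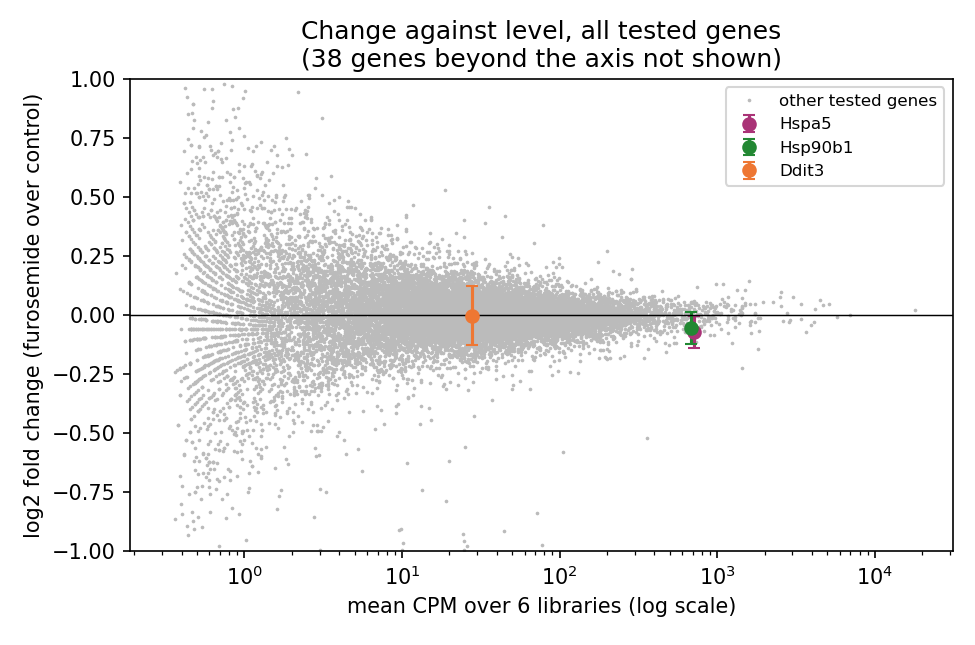
Log2 fold change of furosemide over control against mean CPM (log axis) for the tested genes, with the 3 genes in colour and bars for their 95% intervals. Hspa5 and Hsp90b1 lie at the right of the cloud with short bars just below 0, and Ddit3 lies at 0 in mid-range; 38 genes with changes beyond the axis are not drawn.

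The spread between pools of rats was narrow for all 3 genes when set against the median of all tested genes. The coefficient of variation within groups (CV, the SD as a percentage of the mean, pooled over both groups) was 1.55% for Hspa5, 1.62% for Hsp90b1 and 3.48% for Ddit3, against a median of 5.95% over all tested genes. A lower CV was found for 2.42%, 2.87% and 23.2% of genes in the same order. The CV tends to fall as counts rise, and genes of like level were not compared as a set. These ranks are therefore no trait particular to the 3 genes. Counting error alone would give a CV of 0.801% for Hspa5 and 0.822% for Hsp90b1, both under the pooled CVs. The 2 groups differed in this, since the CV of Hspa5 was 2.11% over the control pools and 0.393% over the furosemide pools, and that of Hsp90b1 1.04% and 2.08%. The furosemide pools thus showed no spread in Hspa5 beyond counting error, and with 3 pools a group these CVs are rough. For Ddit3 counting error alone would give 4.07%, above the CV observed, and no spread beyond counting error was seen. In the control 3 library, the lowest in counts for Ddit3, the unscaled level of 26.6 CPM had an exact 95% binomial interval (Clopper-Pearson) of 24.5 to 28.9 CPM, which covers counting error only. That interval holds the scaled means of both groups.

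**Figure D4:**
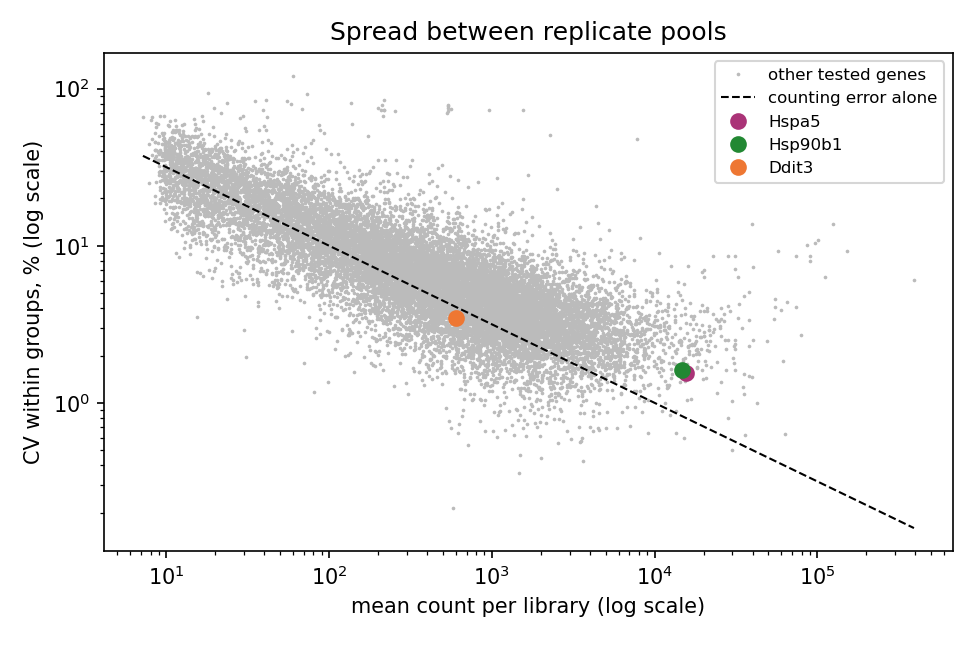
CV within groups in percent against mean count per library, both on log axes, for all tested genes, with a dashed line for counting error alone. Hspa5 at 1.55% and Hsp90b1 at 1.62% lie above the line at high counts, and Ddit3 at 3.48% lies just under it.

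Ratios of counts within a library need no scaling for depth. They compare numbers of reads, not of transcripts, because the genes differ in length. Hspa5 had 1.05, 1.06 and 1.07 counts for each count of Hsp90b1 in the control libraries and 1.07, 1.02 and 1.05 in the furosemide libraries. The groups overlapped, and the log2 ratio was 0.084 ± 0.016 over the control pools and 0.067 ± 0.030 over the furosemide pools (SD over 3 pools each). The difference, -0.017, was smaller in size than the SD pooled over both groups, 0.024. There were 24.9, 26.6 and 27.9 counts of Hspa5 for each count of Ddit3 in controls, and 26.2, 24.4 and 25.1 after furosemide. For Hsp90b1 the figures were 23.8, 25.0 and 26.1 counts in controls and 24.5, 23.8 and 23.9 after furosemide. Both sets overlapped between the groups. The log2 ratio of Ddit3 to Hspa5 was 0.069 higher after furosemide, and that of Ddit3 to Hsp90b1 0.052 higher. Both differences were close to the SDs pooled over both groups, 0.068 and 0.049. These ratios are described without a test.

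Across the 6 libraries the log2 levels of the chaperones were correlated before adjustment only. Of the 3 pairs computed, Hspa5 with Hsp90b1 gave a Pearson r of 0.85 (two-sided exact permutation p = 0.025, 0.075 after Benjamini-Hochberg adjustment over the pairs, n = 6). Spearman's rho was 0.83 (exact permutation p = 0.0583, adjusted 0.175). Without control 2 and control 3, the libraries farthest from the median of Hspa5, r was 0.61 over 4 libraries, and for deviations from the group means r was 0.45. The relation therefore did not pass the adjusted threshold and rests in part on those control libraries. Hspa5 with Ddit3 gave r = -0.28 and rho = -0.086 (exact permutation p = 0.536 and 0.919, adjusted 0.686 and 0.919), and r turned to 0.49 without the same libraries. Hsp90b1 with Ddit3 gave r = 0.19 and rho = 0.26 (exact permutation p = 0.686 and 0.658, adjusted 0.686 and 0.919). It turned to -0.94 without furosemide 1 and furosemide 3, so no relation of Ddit3 to either chaperone held.

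Other genes followed each pattern closely, as many must over 6 libraries. Of the 10655 other genes that averaged 10 CPM or more, 149 (1.40%) had an r above 0.9 with Hspa5, 88 (0.826%) with Hsp90b1 and 52 (0.488%) with Ddit3. The closest to Hspa5 was ENSRNOG00000031135 with r = 0.996, which averaged 425 ± 3.81 CPM over control and 415.5 ± 0.382 CPM over furosemide pools (SD over 3 pools each, edgeR adjusted p = 0.839). The closest to Hsp90b1 was ENSRNOG00000007887 with r = 0.99, which averaged 43.6 ± 0.363 CPM over control and 41.9 ± 0.954 CPM over furosemide pools (edgeR adjusted p = 0.798). The gene closest to Ddit3 had r = 0.984. These genes are not paired with symbols in the sources used here. For the same reason the sensors, other chaperones, degradation factors and PERK targets of the response were not analysed here, and the tissue label was not checked against marker genes.

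The estimates for the chaperones moved little with the analysis. Over 14 alternatives, which changed the scaling, the filter, the test or the libraries used, the log2 fold change of Hspa5 lay between -0.089 and -0.060 and that of Hsp90b1 between -0.073 and -0.044. None of the 3 genes (0) passed the adjusted threshold in the edgeR quasi-likelihood test, the edgeR exact test, DESeq2 or limma-voom, and in each of these tools 1 of the 3 had an unadjusted p under 0.05. The edgeR exact test called 0.275% of the tested genes, DESeq2 0.365% of those it gave an adjusted p, and limma-voom 0%. The direction of Ddit3 was not stable, since its log2 fold change was 0.023 without control 1 and 0.020 without furosemide 1.

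**Figure D5:**
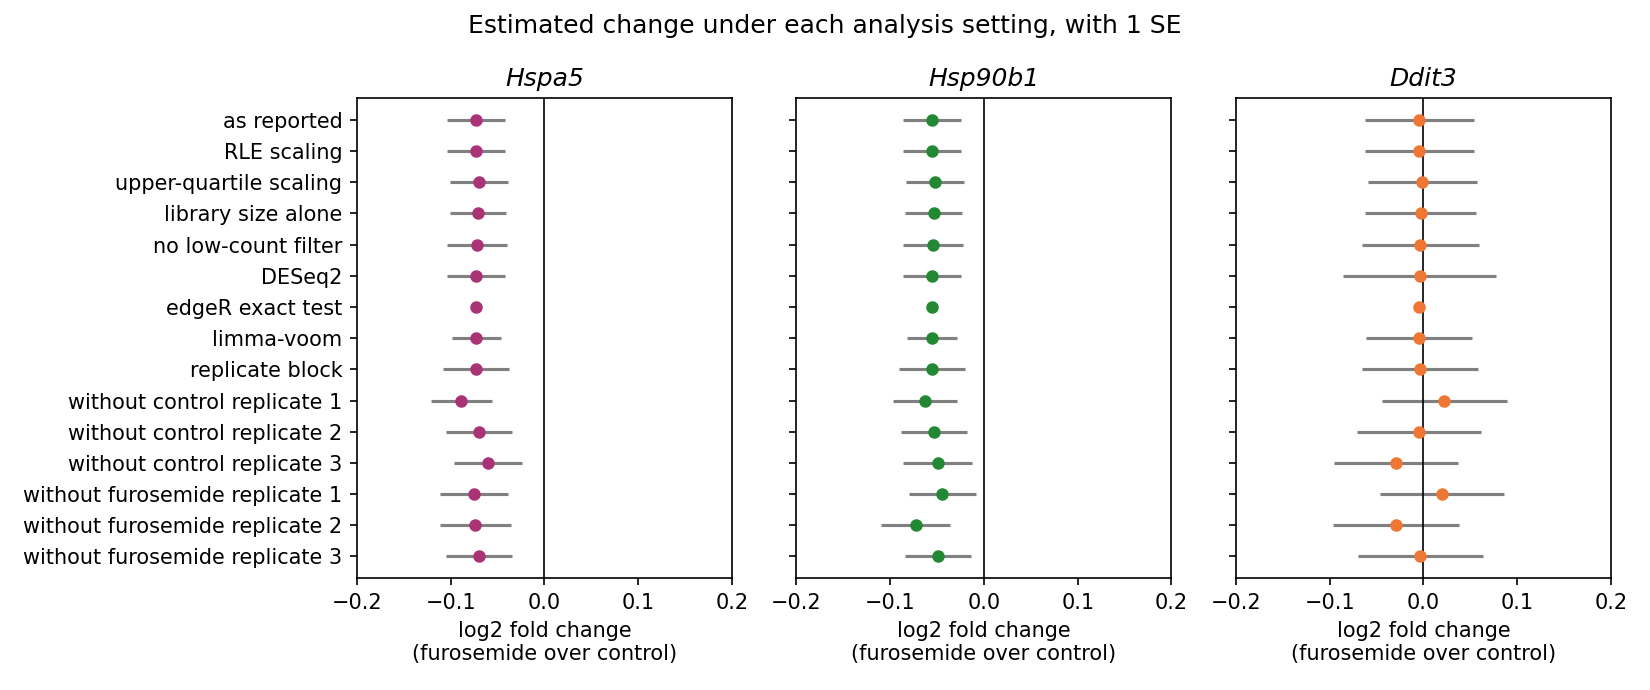
Log2 fold change of furosemide over control for each gene as reported and under 14 alternatives, with bars of 1 standard error (the edgeR exact test gives none). Hspa5 stays between -0.089 and -0.060 and Hsp90b1 between -0.073 and -0.044, while Ddit3 lies on both sides of 0.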

How the data were processed

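The deposited table holds raw counts of reads per rat Ensembl gene for 6 libraries. Per the submitters' processing notes the authors used FastQC, TopHat, HTSeq and edgeR, with no versions stated. The genome build, strand setting and treatment of reads matching several places were not given in the sources used here. Per the labels' protocols, RNA extraction used QIAzol and an RNeasy kit, and library preparation a TruSeq mRNA kit, which selects polyadenylated RNA.

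Counts were analysed in R 4.3.3 with edgeR 4.0.16 (filterByExpr, which kept 16344 of 32402 genes and 99.9% of counts, TMM scaling, glmQLFit and glmQLFTest with group as the only term). P-values were adjusted over all tested genes by the Benjamini-Hochberg method at 0.05. The standard error is the size of the log2 fold change divided by the square root of F, and 95% intervals use the moderated degrees of freedom. Correlations used log2 CPM with a prior count of 2. Alternatives were RLE, upper-quartile or no scaling factors, no filter, the exact test of edgeR, voom from limma 3.58.1, DESeq2 1.42.0, a replicate block and leaving out each library. The named genes are the 3 members and the gene most correlated with each, at most 2 of them by identifier for lack of symbols. None of the 47357 RefSeq entries (0) carries an Ensembl identifier. The members, lists and tests were chosen with earlier results of these data known, and the motifs after the counts had been seen.

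The fits were tested on simulated data with known changes. The 95% intervals covered the true change at close to the nominal rate, and the share of false calls was somewhat above the nominal rate where dispersions varied between genes. No 2 libraries were copies, since the chi-square per gene between libraries was 2.69 to 5.95, where sampling noise gives about 1.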

Additional observations from a re-analysis of the deposited data

How the results depend on the processing

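None of the 3 genes (0) passed the adjusted threshold in any of the 14 alternatives. The adjusted p ran from 0.478 to 0.794 for Hspa5, from 0.640 to 0.999 for Hsp90b1 and from 0.956 to 1 for Ddit3. The 95% interval of Hspa5, which lay below 0 as reported, held 0 in 6 of the 11 other quasi-likelihood fits: those without control 2, control 3 or any 1 furosemide library, and that with the replicate block. Leaving out 1 library gave log2 fold changes of -0.089 to -0.060 for Hspa5 and -0.073 to -0.044 for Hsp90b1. For Ddit3 it gave -0.029 to 0.023, with a change of sign without control 1 (0.0225) and without furosemide 1 (0.0201), each within 1 standard error of 0; these alternatives have fewer libraries. With a replicate block the log2 fold changes were -0.073 for Hspa5, -0.055 for Hsp90b1 and -0.0040 for Ddit3, and 0 of the 3 passed. Deviations from the group means did not go together in libraries that share a replicate number (r of -0.13, -0.0072 and -0.033 across genes). Of the control libraries, 0 of 3 were closest to their own number. No pairing by number was therefore seen, and the labels describe none. With 3 libraries a group, these values cannot exclude a shared batch. The differences in the within-library log2 ratios moved by less than the spread between pools when 1 library was left out. They ran from -0.031 to -0.00097 for Hspa5 to Hsp90b1, 0.030 to 0.11 for Ddit3 to Hspa5 and 0.020 to 0.086 for Ddit3 to Hsp90b1. Depth limits Ddit3, where counting error alone gives a CV of 4.07%.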
